A study of Mus musculus and Acomys cahirinus with 16 samples.

Results

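Kallikreins are secreted serine proteases of the skin barrier, and the genes described here are 8 of them, Klk5, Klk6, Klk7, Klk8, Klk10, Klk11, Klk13 and Klk14, with 2 genes of Kazal-type protease inhibitors, Spink5 and Spink12. These 10 genes were chosen by family membership, by symbol, with the treated against untreated results of these data already known. All 10 were found in the mouse table of 56980 genes and in the spiny mouse table of 19818 genes. Because of that choice, the fold changes of the 10 genes and the calls made on them are given as a description of the samples and are not used as a test of the family.

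The 16 samples were skin from 2 rodents, Mus musculus (mouse) and Acomys cahirinus (spiny mouse), either left untreated or treated with DMBA/TPA, with 4 samples in each of the 4 groups. DMBA is a mutagenic polycyclic hydrocarbon and TPA a phorbol ester that promotes tumour growth, and the pair is the classical chemical protocol of skin carcinogenesis. The labels name the tissue only as skin; the series' design text speaks instead of irradiated fibroblasts, and the sample labels were followed here. They give no strain, age, dose or duration, and they do not say whether a treated sample held a tumour or whether replicates came from separate animals, so the spread between samples may in part be technical. Polyadenylated RNA was sequenced, and the 8 mouse samples held between 19608787 and 30198281 counts each, the 8 spiny mouse samples between 21143918 and 30561256. Levels are given as CPM, the count divided by a library size scaled by TMM within each species, and a level of 3 counts corresponds to between 0.102 and 0.158 CPM.

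Epidermal kallikreins are made as inactive precursors in the upper living layers of the epidermis, released into the space between cornified cells, and activate one another in a cascade. The trypsin-like KLK5 activates itself and then KLK7, a chymotrypsin-like enzyme, and KLK14, and together these cleave the corneodesmosome proteins that hold cornified cells together, so that cells are shed. Spink5 encodes LEKTI, a multidomain inhibitor of KLK5, KLK7 and KLK14, and its loss causes Netherton syndrome, in which the barrier detaches. KLK5 and KLK14 can also cleave the receptor PAR2 on keratinocytes, which links the proteases to itch and inflammation.

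The kallikrein members lie side by side in both genomes. On mouse chromosome 7 (GRCm39, plus strand) the order was Klk14 (43339842 to 43344960), Klk13, Klk12, Klk11, Klk10, Klk9, Klk8, Klk7, Klk6 and Klk5 (43491395 to 43500605). In the spiny mouse assembly the same neighbours stood in the same relative order on the minus strand of scaffold_12, from Klk5 (64806989 to 64818106) to Klk14 (64957524 to 64976150).

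The promoters of the 8 kallikreins are of interest because neighbouring genes of this cluster differed widely in their change after treatment, from a log2 fold change of 0.66 for Klk5 to 7.44 for Klk14 in mouse. The 100 bases before the gene start are shown for 3 genes that carry the letters TTAAAA in that stretch (Klk6, Klk8 and Klk10) and for Klk13, Klk14 and Klk5, the extremes of the mouse change, which do not carry them. The capitals mark TTAAAA. All are from RefSeq on the mouse assembly GRCm38.p6, plus strand, whose coordinates differ from those of the expression table. The stretches are chr7:43825350-43825449 for Klk6 (the second of its annotated starts), chr7:43797477-43797576 for Klk8, chr7:43780954-43781053 for Klk10, chr7:43712467-43712566 for Klk13, chr7:43690318-43690417 for Klk14 and chr7:43842169-43842268 for Klk5.
Klk6: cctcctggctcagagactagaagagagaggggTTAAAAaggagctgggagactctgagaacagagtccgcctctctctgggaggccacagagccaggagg
Klk8: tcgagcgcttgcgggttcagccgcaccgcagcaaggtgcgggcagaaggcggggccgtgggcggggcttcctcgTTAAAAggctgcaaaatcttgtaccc
Klk10: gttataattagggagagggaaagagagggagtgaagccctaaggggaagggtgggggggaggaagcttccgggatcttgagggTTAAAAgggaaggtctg
Klk13: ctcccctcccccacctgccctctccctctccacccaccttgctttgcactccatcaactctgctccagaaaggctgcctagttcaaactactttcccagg
Klk14: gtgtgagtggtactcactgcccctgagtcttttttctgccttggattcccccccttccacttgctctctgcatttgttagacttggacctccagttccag
Klk5: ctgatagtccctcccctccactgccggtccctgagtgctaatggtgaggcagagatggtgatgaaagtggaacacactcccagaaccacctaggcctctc

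The search covered windows of 300 bases, 250 before and 50 after each annotated start, on both strands, with 10 windows for the 8 kallikreins. TTAAAA, which was added to the search after the windows had been read, occurred in 4 of the 8 genes, against 21.5% of 27025 genes with a window. The AP-1 motif TGANTCA, the grainyhead-like motif AACNNGTT and the TATA box letters TATAAA occurred in 0 of the 8 genes, against 8.97%, 4.77% and 15.7% of genes. The letters CCAAT occurred in 1 of the 8 (Klk11), against 41.1% of genes. A match is a description of the letters, and the absence of one says only that those letters are not in these windows.

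In treated mouse skin the level of the kallikrein family was several times that of untreated skin, and Klk6, Klk13 and Klk14 made the largest steps. Of the 10 genes, 8 were called higher in treated mouse skin, 0 lower and 2 (Klk5 and Spink5) not called, by edgeR's quasi-likelihood test at a Benjamini-Hochberg adjusted p under 0.05. The background to that count is large: 61.2% of the 19740 mouse genes tested were called, 25.9% higher and 35.3% lower. The direction split moves with the scaling. The higher share of the calls was 42.4% with TMM and 48.4% with DESeq2 size factors. It was 30.5% after upper-quartile scaling and 28.6% with no scaling beyond library size. For all 10 genes every mouse treated sample lay above every untreated one, as it did for 26.6% of all mouse genes tested. In spiny mouse 9 of the 10 genes could be tested and 7 were called higher, 0 lower and 2 (Klk5 and Klk14) not called, against a background of 55.1% of 14833 genes called, 28.2% higher and 26.9% lower. For those 7 every treated sample lay above every untreated one, as for 26.7% of all spiny mouse genes tested. The median log2 fold change over the tested members was 2.27 in mouse and 0.92 in spiny mouse, beside medians of -0.15 and -0.01 over all genes tested. Klk14 and Spink12 passed the low-count filter in mouse only through their treated samples, so their inclusion already required a difference and these counts and medians support nothing on their own.

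**Figure D1:**
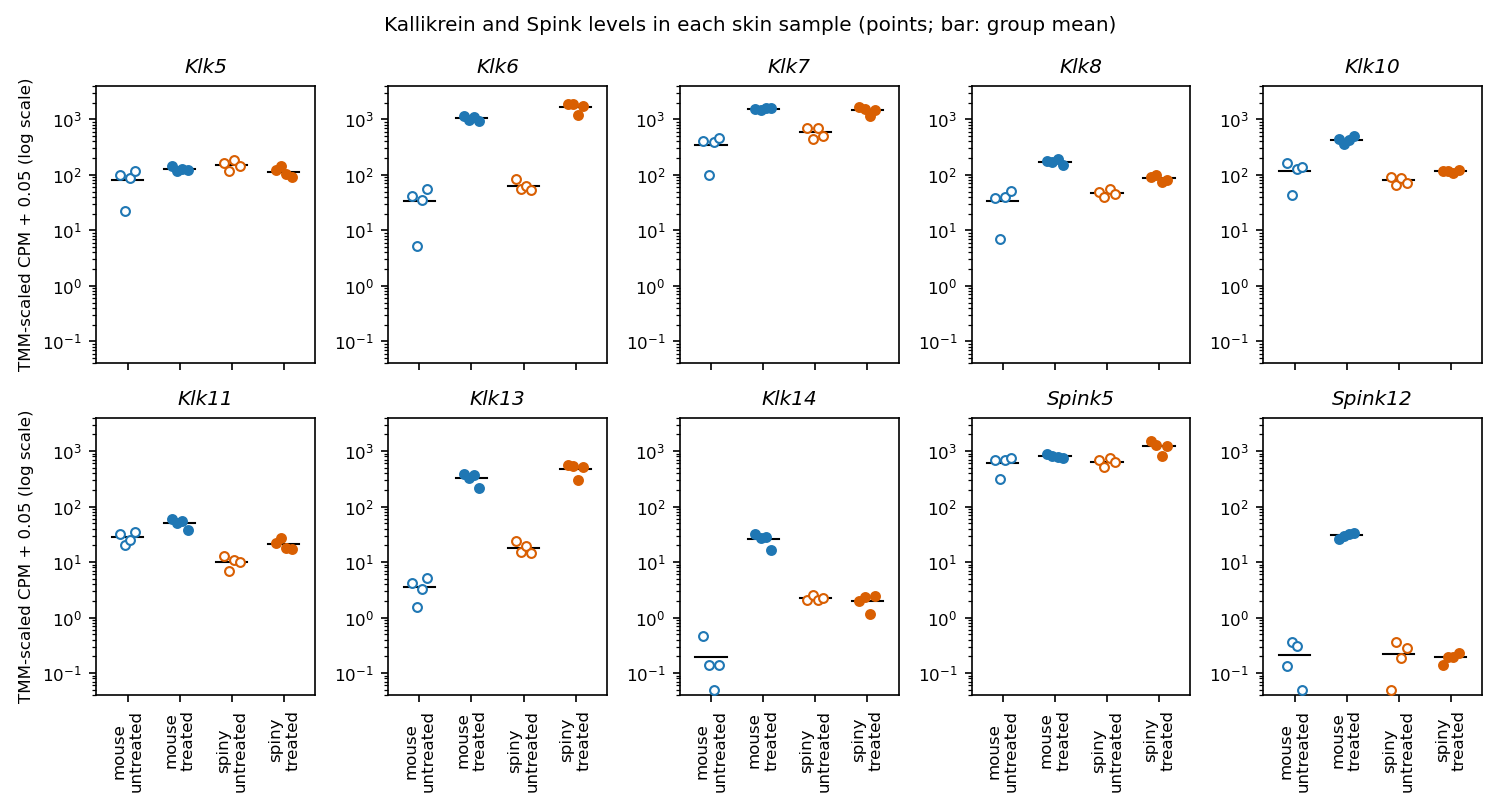
Level of each of the 10 genes in each sample, as TMM-scaled CPM plus 0.05 on a log axis, with open points for untreated and filled points for treated samples (n = 4 per group) and a bar at the group mean. Klk6 and Klk13 stand far higher in treated samples of both species, while Klk14 and Spink12 do so in mouse and not in spiny mouse.

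Skin is a mixture, and in these bulk samples fewer cells of a type and less RNA per cell cannot be told apart. The summed CPM of 8 suprabasal keratinocyte markers, the layer in which kallikreins are made, was 2573 to 6657 in untreated and 7845 to 12264 in treated mouse skin, and 6874 to 9147 untreated and 8522 to 13491 treated in spiny mouse, with none of them at 0 in any sample. Of the 8 markers, 6 rose, 0 fell and 2 were not called in mouse, and 4 rose, 1 fell (Calml3) and 3 were not called in spiny mouse. The summed level of the hyperplastic keratinocyte markers (Krt6a, Krt16 and related genes) was 815 to 1796 in untreated and 14882 to 20467 in treated mouse skin, and 1472 to 2790 untreated and 9117 to 10116 treated in spiny mouse, where Krt6b was not matched by symbol. That of 8 skeletal muscle markers was lower in treated skin of both species, 2938 to 3899 against 12234 to 18398 in mouse and 5970 to 12385 against 17994 to 22367 in spiny mouse. All 8 muscle markers fell in mouse, and all 7 that could be tested fell in spiny mouse. The anagen hair follicle markers summed to 12.1 to 2666 in untreated and 22920 to 25217 in treated mouse skin, where 9 of 10 rose. Krt73 and Krt85 were at 0 in at least 1 mouse sample and passed the low-count filter there only through the treated samples. In spiny mouse the anagen sum was 1188 to 12038 untreated and 212 to 3513 treated, which overlap. Of 9 anagen markers there, 2 fell (Krt35 and Msx2) and 7 were not called.

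The basal keratinocyte sum was 6938 to 10038 untreated and 14078 to 18834 treated in mouse, and 8295 to 10020.2 and 16661 to 20885 in spiny mouse, with no overlap. Of its 6 markers 2 rose and 2 fell in mouse, and 4 rose and 1 fell in spiny mouse. The dermal fibroblast sum was 9662 to 16002 untreated and 7302 to 10986 treated in mouse, where 2 of 6 markers fell, and 4687 to 7894 and 2538 to 3603 in spiny mouse, where 3 fell and 1 rose. The leukocyte sum was 349.6 to 1059.9 untreated and 317 to 447 treated in mouse, where 2 of 6 tested markers fell. In spiny mouse it was 147 to 194 and 230.5 to 323, where 2 of 6 rose. Most of the mouse sum was Lyz2, at means of 511 CPM untreated and 285 CPM treated. Lyz2 was not matched by symbol in spiny mouse, so the leukocyte sums of the species hold different genes. Ptprc, the pan-leukocyte marker CD45, fell by 1.24 in mouse and rose by 1.44 in spiny mouse. The sebaceous gland sum was 2381 to 3755 and 1743 to 2815 in mouse, and 2295 to 4123 and 2012 to 2381 in spiny mouse, with overlap in both. The part of these shifts in the kallikrein values was not tested.

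Untreated mouse replicate 2 stood apart from the other 3 samples of its group and touches most mouse values below. It was the lowest untreated sample for 8 of the 10 genes (Klk5, Klk6, Klk7, Klk8, Klk10, Klk11, Klk13 and Spink5), with Klk6 at 5.13 CPM against 34.7 to 56.4 CPM in the others. It also had the lowest suprabasal marker sum of its group (2573) and the highest anagen marker sum (2666, against at most 43.9 in the others). The column that holds this sample also has a suffix in its name that the others lack, whose meaning is not given in the sources used here. Without it Klk5 and Spink5 were called as well, among 13944 mouse genes called in all. For the 10 genes the fold change without it is given below wherever it changes a call. For the lists of other genes only a count without it is given.

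Klk5 encodes the initiating, trypsin-like protease of the shedding cascade. Klk5 measured 99.9, 22.3, 88.3 and 117 CPM in untreated and 145, 119, 130.1 and 125 CPM in treated mouse skin. Every treated sample was above every untreated one, by a narrow margin over untreated replicate 4. The log2 fold change was 0.66 (SE 0.40), not called; without untreated replicate 2 it was 0.44 and was called. In spiny mouse Klk5 measured 164, 119, 186 and 146 CPM untreated and 121, 143, 102 and 91.0 CPM treated. The groups overlapped, and the log2 fold change was -0.43 (SE 0.17), not called; it was called by DESeq2, by edgeR with upper-quartile scaling or library size only, and without untreated replicate 2 (-0.53) or treated replicate 2 (-0.55). The species difference was -1.09 (SE 0.46), not called. With all samples it was called by DESeq2 (-1.21), by edgeR with DESeq2 size factors (-1.21) and without the low-count filter (-1.22), and it was also called without untreated mouse replicate 2 (-0.87) or 4 (-1.32).

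Klk7, the chymotrypsin-like protease that KLK5 activates, was the most abundant kallikrein per length in untreated skin of both species. It measured 414, 98.3, 394 and 470.3 CPM in untreated and 1537, 1493, 1595 and 1632 CPM in treated mouse skin. The treated samples lay close together and well above all untreated samples, with a log2 fold change of 2.18 (SE 0.41). In spiny mouse Klk7 measured 691, 448.5, 704 and 504 CPM untreated and 1654, 1567, 1153 and 1453 CPM treated. The groups did not overlap and the log2 fold change was 1.31 (SE 0.18), while the species difference of -0.87 (SE 0.46) was not called by edgeR with all samples and was called by DESeq2 (-0.99) and without untreated mouse replicate 2 (-0.65).

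Klk14, a trypsin-like protease that KLK5 activates, separated the species most. In untreated mouse skin it was close to undetected, at 0.407, 0.0877, 0 and 0.0911 CPM (10, 2, 0 and 2 counts), and in treated skin it measured 32.4, 27.3, 27.9 and 16.5 CPM. Over the group totals of 14 and 2453 counts the treated level was 176 times the untreated one, with an exact 95% interval for counting error alone of 105 to 322. Of the 14 untreated counts 10 came from replicate 1, and the fitted log2 fold change was 7.44 (SE 0.54) with it and 8.75 without it. In spiny mouse the untreated samples measured 2.01, 2.46, 2.01 and 2.19 CPM and the treated samples 1.91, 2.25, 1.10 and 2.42 CPM. These overlap fully, and the log2 fold change was -0.18 (SE 0.24). The species difference in log2 fold change was -7.62 (SE 0.58), called, and -8.93 without untreated mouse replicate 1. The mean untreated levels were 0.146 CPM in mouse and 2.17 CPM in spiny mouse, from tables that were normalized separately.

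Klk6 and Klk13 are the kallikreins with the largest steps shared by both species. Klk6 measured 41.3, 5.13, 34.7 and 56.4 CPM in untreated and 1140.3, 974, 1126 and 955 CPM in treated mouse skin. In spiny mouse it measured 84.4, 55.2, 62.5 and 53.9 CPM untreated and 1927, 1899, 1204 and 1738 CPM treated. The groups were far apart in both species, with log2 fold changes of 4.93 (SE 0.62) and 4.72 (SE 0.22), and the difference between them was -0.21 (SE 0.61), not called.

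Klk13 was low in untreated skin and high in treated skin of both species. It measured 4.07, 1.49, 3.26 and 5.10 CPM in untreated and 394, 329.6, 363 and 212 CPM in treated mouse skin. In spiny mouse it measured 23.6, 15, 19.2 and 14.8 CPM untreated and 559, 549.8, 297 and 511 CPM treated. The groups were far apart in each species, and the log2 fold changes of 6.54 (SE 0.40) and 4.72 (SE 0.25) differed by -1.82 (SE 0.42), called as smaller in spiny mouse.

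Klk8 and Klk10 moved in the same direction in both species and by more in mouse. Klk8, the protease neuropsin, measured 38.8, 7.06, 39.6 and 50.3 CPM in untreated and 179, 173, 189.6 and 152 CPM in treated mouse skin, a log2 fold change of 2.35 (SE 0.47). In spiny mouse it measured 48.9, 40.6, 55.0 and 44.7 CPM untreated and 92.8, 99.1, 75.8 and 81.0 CPM treated, a log2 fold change of 0.88 (SE 0.11). Neither species showed overlap between its groups, and the difference of -1.47 (SE 0.50) was called.

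Klk10 measured 162, 43.1, 128 and 138 CPM in untreated and 434, 364, 429 and 509 CPM in treated mouse skin, a log2 fold change of 1.88 (SE 0.35). In spiny mouse it measured 91.1, 66.0, 88.4 and 71.9 CPM untreated and 119.8, 117, 107.6 and 123 CPM treated, a log2 fold change of 0.56 (SE 0.11). The spiny mouse step was small but outside the spread of the untreated samples. The difference of -1.32 (SE 0.38) was called.

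Klk11 is a trypsin-like kallikrein of the upper epidermis, and its treated samples were all above its untreated samples in both species. It measured 31.7, 20.7, 25.4 and 34.3 CPM in untreated and 60.9, 49.8, 55.9 and 38.1 CPM in treated mouse skin, and 12.7, 6.98, 10.8 and 10.1 CPM and 21.6, 27.0, 18.2 and 16.8 CPM in spiny mouse. The log2 fold changes were 0.87 (SE 0.19) and 1.04 (SE 0.20), and the difference of 0.17 (SE 0.29) was not called, which does not show that the changes were alike.

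The 2 inhibitor genes went separate ways. In mouse Spink5 (44096302 to 44155568) and Spink12 (44237474 to 44241610) lie on the plus strand of chromosome 18, and in spiny mouse both lie on the minus strand of scaffold_3. Spink5 measured 701, 315, 696 and 745 CPM in untreated and 885, 818, 795 and 759 CPM in treated mouse skin. The groups did not overlap, yet the log2 fold change of 0.41 (SE 0.25) was not called with all samples, and without untreated replicate 2 it was 0.28 and called. In spiny mouse Spink5 measured 679, 513, 754 and 633 CPM untreated and 1552, 1298, 824 and 1220.3 CPM treated, a log2 fold change of 0.92 (SE 0.19). The species difference of 0.52 (SE 0.33) was not called with all samples and was called without untreated mouse replicate 2 (0.64).

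Spink12, a Kazal-type gene separated from Spink5 by Spink14 and Spink6 in both species, was well above the level of 3 counts in treated mouse skin and in no other group. It measured 0.0814, 0.307, 0.256 and 0 CPM in untreated (2, 7, 7 and 0 counts) and 26.3, 29.4, 32.3 and 33.7 CPM in treated mouse skin. The group totals of 16 and 2966 counts give a treated level 186 times the untreated one, with an exact 95% interval for counting error alone of 114 to 326. In spiny mouse it measured 0, 0.317, 0.136 and 0.229 CPM untreated and 0.091, 0.143, 0.146 and 0.183 CPM treated, with 17 and 14 counts in the group totals. Those levels are at or near 3 counts per sample, so no fold is given and the gene did not pass the filter in spiny mouse.

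**Figure D2:**
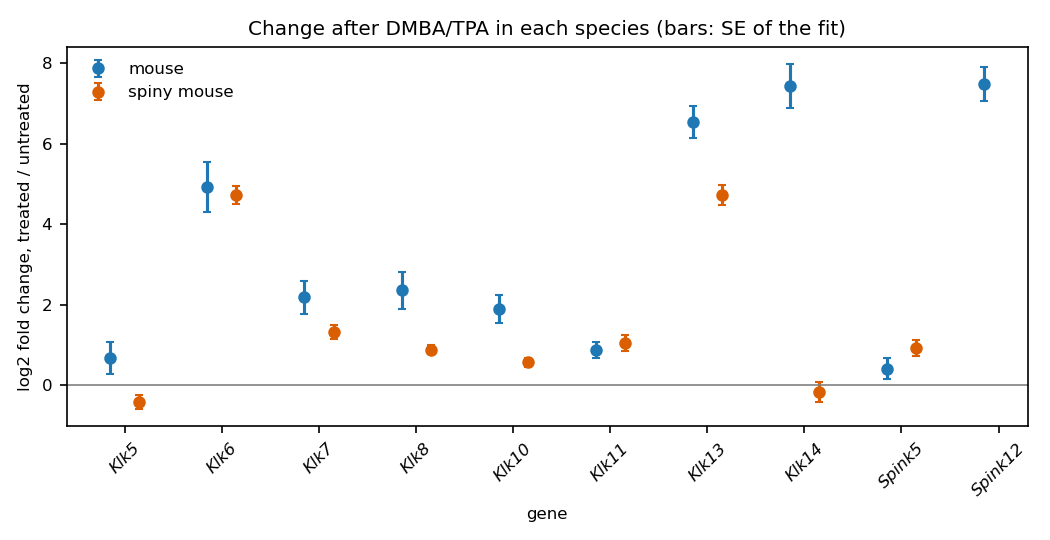
Log2 fold change of treated over untreated skin for each gene in mouse (blue) and spiny mouse (orange), with bars of 1 SE of the edgeR fit; Spink12 was not tested in spiny mouse. Klk6 and Klk11 nearly coincide, and Klk14 is 7.44 in mouse against -0.18 in spiny mouse.

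The species difference was called for 4 of the 9 genes tested in both tables (Klk8, Klk10, Klk13 and Klk14), each smaller in spiny mouse, and 0 were larger. Over the 13656 genes tested for that difference 46.1% were called, 21.4% larger and 24.7% smaller in spiny mouse. Of the called genes, the share that was larger in spiny mouse was 46.4% with TMM; it was 36.9% with DESeq2 size factors, 61.2% after upper-quartile scaling, 66.2% when only library size was used and 36.3% without the low-count filter. The 4 calls on these genes held under every one of these settings, but the genes were chosen with results of these data known. Klk14 passed the mouse filter only through its treated samples, so its call supports nothing on its own.

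Compared per kilobase of the deposited exon length, Klk6 and Klk13 made up a larger share of kallikrein transcripts in treated skin, and Klk5, Klk7 and Klk10 a smaller one. In untreated mouse skin Klk7 made up 45.4% ± 2.43 (SD, n = 4) of the summed level of the 8 genes, followed by Klk10 (22.5% ± 2.96) and Klk5 (15.2% ± 1.17), with Klk6 at 5.16% ± 1.77. In treated mouse skin Klk7 was still first (36.9% ± 2.06), with Klk6 now second (30.9% ± 1.49) followed by Klk10 (14.1% ± 1.93). In untreated spiny mouse skin the order was Klk7 (52.5% ± 1.62), Klk5 (20.4% ± 1.34), Klk10 (10.2% ± 0.449) and Klk6 (7.68% ± 1.07). In treated spiny mouse skin Klk6 was first at 48.2% ± 1.43, ahead of Klk7 at 31.5% ± 1.24 and Klk13 at 9.52% ± 1.02. Klk5, the initiating protease, made up 4.33% ± 0.197 in mouse and 3.66% ± 0.667 in spiny mouse after treatment.

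**Figure D3:**
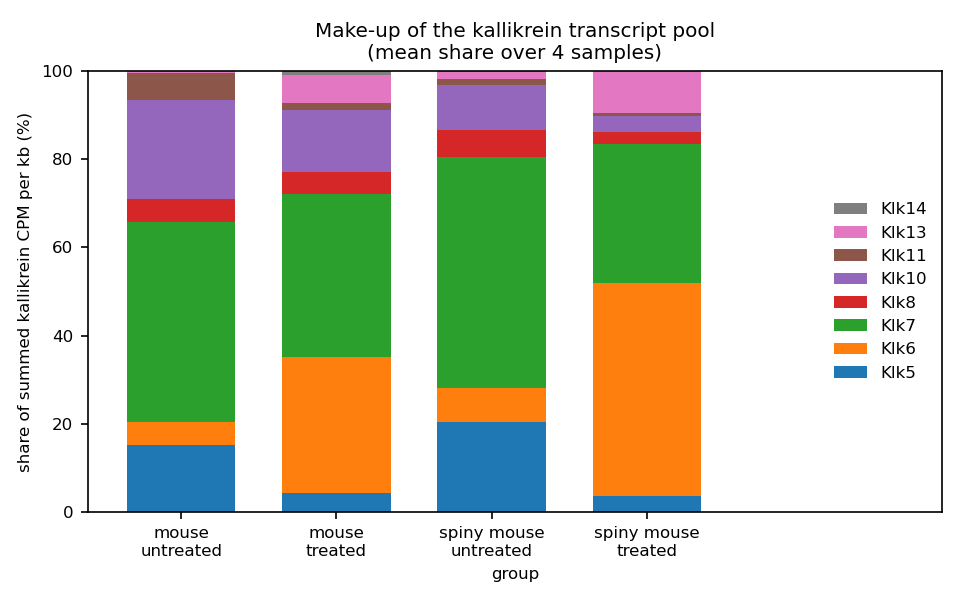
Mean share (%) of each kallikrein in the summed level per kb of the 8 kallikreins, by group (n = 4). The Klk6 share is 5.16% untreated and 30.9% treated in mouse, and 7.68% and 48.2% in spiny mouse.

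The ratio of the summed kallikrein level to the summed Spink5 and Spink12 level, all per kb, describes the balance of protease to inhibitor transcripts among these 10 genes only. Klk9, Klk12 and the other protease inhibitors given below are not part of it. Among those inhibitors Slpi rose and Serpina12 fell in both species, so another choice of genes could give another balance. In mouse the ratio was 3.32, 1.85, 2.98 and 3.41 in untreated and 11.1, 10.5, 11.8 and 11.4 in treated samples. In spiny mouse it was 4.56, 4.09, 4.15 and 3.75 untreated and 8.15, 9.58, 10.1 and 9.25 treated. The groups did not overlap in either species, and the log2 change was 1.99 in mouse and 1.16 in spiny mouse. Behind the ratio, the mouse kallikrein sum was 394 ± 185 CPM per kb untreated and 2241 ± 121 treated, and the spiny mouse sum 541 ± 104 and 2257 ± 399 (SD, n = 4). The inhibitor sum was 129 ± 41.8 and 200.4 ± 7.88 CPM per kb in mouse, and 130.3 ± 20.3 and 247 ± 60.9 in spiny mouse. Spink12 made up 15.1% ± 2.20 of the inhibitor sum in treated mouse skin and 0.0713% ± 0.0297 in treated spiny mouse skin. In spiny mouse the ratio's change rested largely on Klk6: without Klk6 it was 0.33 on the log2 scale. The mouse change without Klk6 is not given here, so this value does not set the species apart. Transcript ratios say nothing of active enzyme, since each protein is made as a precursor and LEKTI has several inhibitory domains.

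**Figure D4:**
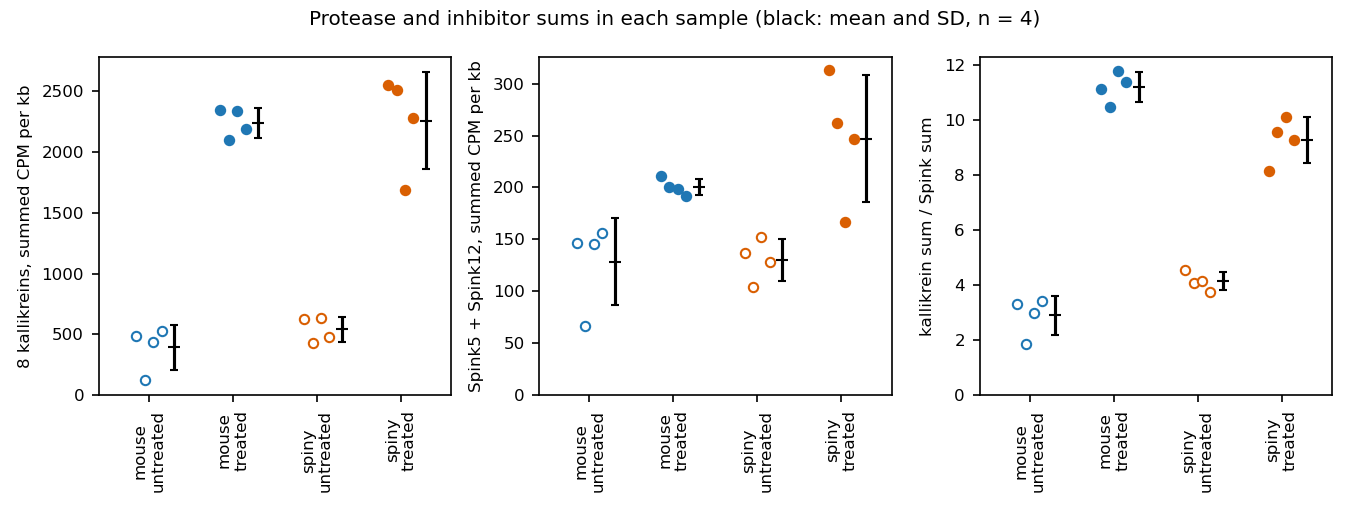
Summed kallikrein level per kb, summed Spink level per kb and their ratio in each sample (open: untreated, filled: treated; black: mean and SD, n = 4). The treated ratios lie at 10.5 to 11.8 in mouse and 8.15 to 10.1 in spiny mouse, above all untreated ratios.

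The family holds further genes that were examined from a list. Of 30 other Klk-named genes in the mouse table, 25 had at most 3 counts in every sample, and only Klk9 and Klk12 could be tested. Klk9, in the same cluster, rose in mouse (7.83 ± 2.02 to 81.7 ± 8.13 CPM) and in spiny mouse (32.3 ± 6.15 to 189.5 ± 52.5 CPM), with log2 fold changes of 3.38 (edgeR adjusted p 5.4e-06) and 2.55 (edgeR adjusted p 3.5e-05). Klk12 rose in mouse, from 2.46 ± 0.257 to 12.0 ± 2.22 CPM, and fell in spiny mouse, from 3.13 ± 0.760 to 1.06 ± 0.225 CPM. The species difference of Klk12 was -3.82 (SE 0.30, edgeR adjusted p 2.1e-07). The antisense gene 2310002F09Rik overlaps exons of Klk14 (287 bases), Klk8 (382 bases) and Klk9 (904 bases) in mouse; it was itself at 52 to 141 counts per sample, and since counting used no strand option, reads of the 2 strands cannot be told apart there.

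Other Spink genes were few and low. Spink7 rose in both species, by log2 fold changes of 1.98 in mouse and 3.39 in spiny mouse, and reached 1.67 and 7.03 CPM. In spiny mouse Spink10 rose from 0.0611 to 0.562 CPM and Spink8 fell from 3.38 to 0.517 CPM. Spink7 in mouse and Spink10 in spiny mouse passed the low-count filter only through their treated samples, so these rises support nothing on their own. Spink6 differed widely between untreated spiny mouse samples (7.89, 8.17, 0.170 and 0.686 CPM), and its log2 fold change of -1.82 (SE 0.98) was not called. Of the 10 other Spink genes, 1 could be tested in mouse and 4 in spiny mouse.

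Of the other epidermal proteases on the list, 8 of 9 tested were higher in mouse and 6 of 9 in spiny mouse, with 0 lower in each. Over all genes tested, 25.9% were higher in mouse and 28.2% in spiny mouse. St14, matriptase, which activates other surface proteases, rose from 84.1 ± 8.46 to 295 ± 11.1 CPM in mouse and measured 101 ± 14.5 and 111 ± 9.56 CPM in spiny mouse, and the difference of -1.67 was called (edgeR adjusted p 6.9e-07). Casp14, the caspase of cornification, rose by log2 fold changes of 2.60 in mouse and 0.68 in spiny mouse. Ctsl, a lysosomal cysteine protease, rose by 2.54 and 0.97. Furin, a proprotein convertase, rose by 1.10 in mouse and 0.89 in spiny mouse. Tmprss4, a membrane serine protease, rose by 1.14 in spiny mouse and was 0.50 in mouse, not called. Prss8, prostasin, the membrane protease in St14's pathway, rose by 1.42 in mouse and was 0.02 in spiny mouse, not called.

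Among other protease inhibitors, 6 of 9 tested rose and 1 fell in mouse, and 4 of 10 rose and 1 fell in spiny mouse. Slpi, which inhibits neutrophil elastase, rose by 4.15 in mouse and 3.95 in spiny mouse. Serpina12, vaspin, fell by 1.40 in mouse and fell by 1.26 in spiny mouse. Wfdc12, of the whey acidic protein family, rose by 4.80 and 0.94, from 0.203 and 1.90 CPM, and Cstb, cystatin B, by 2.03 and 0.27. In mouse Wfdc12 passed the low-count filter only through its treated samples, so its rise there supports nothing on its own. Spint1, the inhibitor of matriptase, rose by 1.74 in mouse and was 0.04 in spiny mouse, with a called difference of -1.69.

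Substrates of the kallikreins split. Flg, the precursor of filaggrin, rose by 2.80 in mouse and 2.29 in spiny mouse, and Flg2 fell by 2.92 in mouse and fell by 2.70 in spiny mouse. Cdsn, corneodesmosin, rose from 394 ± 147 to 1287 ± 80.2 CPM in mouse and was 912 ± 249 and 1011 ± 61.4 CPM in spiny mouse, and the difference of -1.56 was called. Dsc3, a desmosomal cadherin, rose by 0.77 in spiny mouse and was 0.31 in mouse, not called. The list counted 4 higher, 1 lower and 4 not called of 9 in mouse, and 2 higher, 2 lower and 5 not called of 9 in spiny mouse. The desmoglein genes Dsg1a, Dsg1b and Dsg1c averaged 1370, 195 and 1.76 CPM in untreated mouse skin. In untreated spiny mouse skin genes of these symbols averaged 3.59, 0.0368 and 0.527 CPM. Whether matching by symbol captures desmoglein 1 there is not known.

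Of the receptors and genes downstream of them, 3 rose, 1 fell and 2 were not called of 6 in mouse, and 5 rose, 0 fell and 2 were not called of 7 in spiny mouse; the species difference was called larger for 4 and smaller for 2 of 6. F2rl1, which encodes PAR2, rose by 0.71 in mouse and 1.27 in spiny mouse. F2rl2, a related receptor, was at 1.79 ± 0.0689 CPM and fell by 1.32 in mouse, and was at 5.98 ± 0.738 CPM and rose by 1.68 in spiny mouse; the difference was called (SE 0.20, edgeR adjusted p 8.1e-08). Tslp, a cytokine that PAR2 signalling can induce in keratinocytes, rose by 1.23 in mouse and was -0.21 in spiny mouse, not called. Icam1, a leukocyte adhesion molecule, and Tnfaip3, a brake on NF-κB signalling, went the other way. Icam1 rose by 1.16 in spiny mouse and was 0.13 in mouse, not called, with a called difference of 1.03 (edgeR adjusted p 0.0004). Tnfaip3 rose by 0.87 in spiny mouse and was -0.07 in mouse, not called, with a called difference of 0.94 (edgeR adjusted p 0.0006). F2rl3, another receptor of the family, rose by 1.93 in spiny mouse at a low level, from 0.224 to 0.897 CPM, and was not tested in mouse. In spiny mouse F2rl3 passed the low-count filter only through its treated samples, so its rise supports nothing on its own.

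Over the 6 lists together, 24 of 36 tested genes were higher, 3 lower and 9 not called in mouse, 20 of 41 higher, 5 lower and 16 not called in spiny mouse, and of 35 tested for the species difference 4 were larger, 14 smaller and 17 not called. Over all genes tested, 25.9% were called higher in mouse and 28.2% in spiny mouse, and 24.7% of the species differences were called smaller in spiny mouse. The counts include Wfdc12 and Spink7 in mouse and Spink10 and F2rl3 in spiny mouse, which passed the filter only through their treated samples. The lists were chosen with earlier results of these data known.

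**Figure D5:**
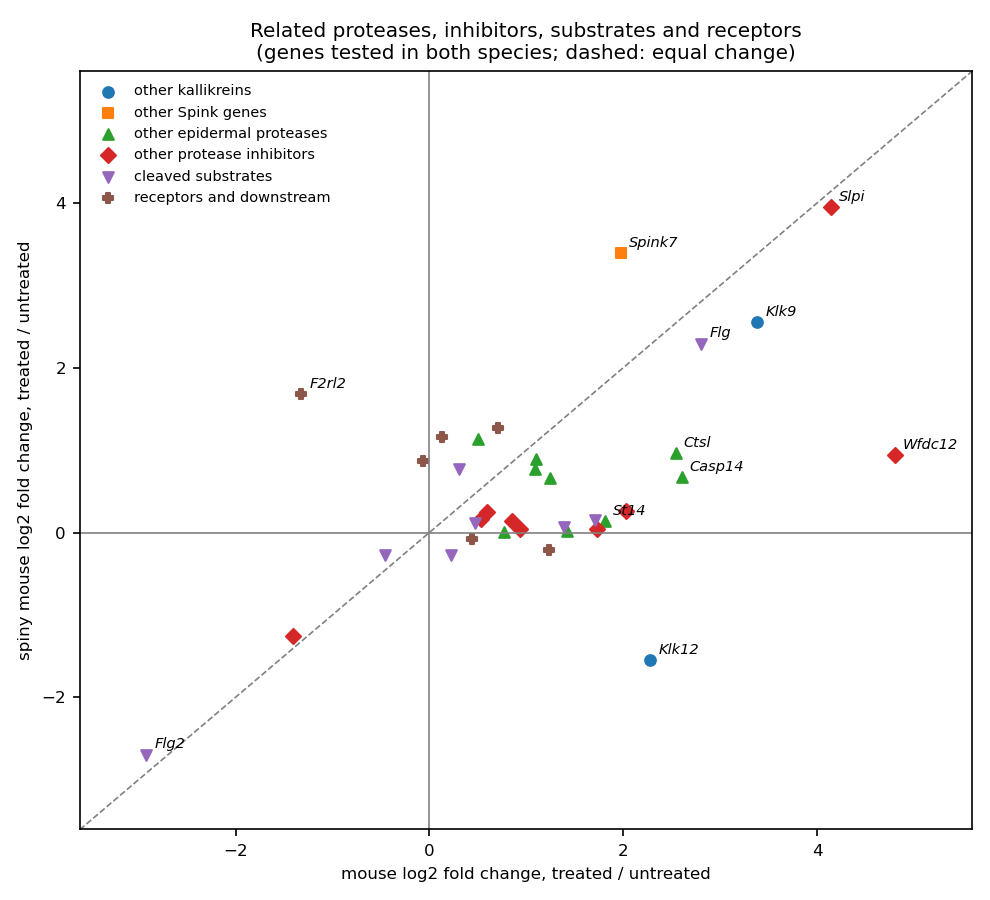
Log2 fold change in mouse (x axis) against that in spiny mouse (y axis) for genes of the 6 lists tested in both species, with a dashed line of equal change. Slpi, Flg and Flg2 lie near the line, while St14 and Klk12 lie below it and F2rl2 above.

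By likeness of pattern, the non-member genes whose log2 CPM followed the summed kallikrein level most closely over the 8 mouse samples were Il36g, Crabp2 and Khdrbs1 (Pearson r of 0.999 each), and over the 8 spiny mouse samples they included Hip1r (0.998) and Zfp207 (0.997). All samples of a species share the contrast of treatment, and 1340 of 11426 mouse genes and 757 of 11050 spiny mouse genes had one above 0.95.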

How the data were processed

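The deposited tables hold raw read-pair counts per gene, made by the authors with featureCounts 2.0.3, per the file headers, with paired fragments counted, both ends required to map and no strand option, although the labels describe a stranded library. The mouse annotation was Ensembl 108 on GRCm39, per the file headers; trimming with Trim Galore and alignment with HISAT2 are named in the submitters' processing notes. Mouse symbols came from the GENCODE vM39 annotation of that build; 744 of 56980 genes had none. Spiny mouse genes were named by the table, whose header names the annotation AcoCah2. Columns were matched to samples by species letter and replicate number; those without the treatment code were taken as the untreated samples, the only other group of each species.

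Counts were fitted per species with edgeR 4.0.16 (TMM, filterByExpr, quasi-likelihood test, Benjamini-Hochberg adjustment over all genes tested; R 4.3.3), and a species by treatment interaction over genes found once in both tables. Levels are CPM from TMM libraries, divided by exon length in kb to compare genes. DESeq2 1.42.0, other scalings, no filter, a replicate block and leaving out each sample were the alternatives. The 10 genes and all lists were chosen with earlier results of these data known. Named list genes were up to 3 called genes with the largest change per list and species, beside genes of known role in the cascade, chosen after their values were seen. Same-numbered samples did not deviate together (mean correlation 0.00943 in mouse and -0.355 in spiny mouse). For samples of different number the mean correlation was -0.00325 in mouse and 0.119 in spiny mouse. The scripts were tested on simulated data in which all genes had the same spread, which was set and not estimated from these data. Of genes given a log2 change of 1 in either direction, 20% were called in mouse and 25% in spiny mouse. For a change of 2 it was 93% and 96%, and for a species difference of 2 it was 81.5%. These shares check the scripts and do not give the share of real changes that these data would show. A gene that was not called may still have changed. One gene that the likeness rule named in spiny mouse is not reported here.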

Additional observations from a re-analysis of the deposited data

Results flagged for a closer look

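Spink5 in untreated mouse skin was at 315.1 CPM in replicate 2, far below the other 3 samples (696 to 745 CPM); of 40 groups of 4 samples looked at, this was the only one so marked, and chance marks about 1 in 20.

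The change after treatment differed between the species for 4 kallikreins by the interaction test: Klk8 (-1.47), Klk10 (-1.32), Klk13 (-1.82) and Klk14 (-7.62), each given as the spiny mouse minus the mouse log2 fold change. The limits of the choice of genes and, for Klk14, of the filter apply here too.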

How the results depend on the processing

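Over 464 recomputed values of the 10 genes, 447 kept their direction and side of the threshold, 15 became called and 2 turned direction: leaving out single samples moved the Klk14 log2 fold change in spiny mouse between -0.29 and 0.023, above 0 without treated replicate 3, and the Klk6 species difference between -0.56 and 0.066, above 0 without untreated mouse replicate 2. Klk5 in spiny mouse became called with DESeq2 (-0.43), upper-quartile scaling (-0.47) and with no scaling beyond library size (-0.45), and without untreated replicate 2 (-0.53) or treated replicate 2 (-0.55). Without Klk6 the spiny mouse ratio changed by 0.33 rather than 1.16. Scaling shifted the median of all mouse genes from -0.15 to -0.05 (DESeq2 size factors), -0.35 (upper quartile) and -0.38 (library size). Genes called ranged over 11062 to 13944 in mouse, 7258 to 8491 in spiny mouse and 5723 to 7711 for the species difference; with the replicate block they were 11246, 7418 and 5723, and the listed genes called were 28, 22 and 16. Whether the numbers pair the samples cannot be told from these data. The cause of these shifts was not tested. Levels near 3 counts, as for Spink12 in spiny mouse, are limited by depth.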
